A study of Mus musculus with 8 samples.

Results

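The 10 genes Cd36, Scarb1, Fabp4, Fabp5, Lpl, Lipg, Angptl4, Pparg, Ppara and Cpt1a, which take up, carry, release, sense and oxidize fatty acids, were followed in endothelial cells of mouse lung tumors. They were listed by name, with no threshold on expression, and all 10 were found among the 33641 gene symbols measured. RNA-seq was performed on CD45-CD31+ cells FACS-sorted from microdissected Lewis Lung Carcinoma (LLC) tumors of the lung, a transplanted mouse carcinoma line, at day 21 after tumor cell injection. Cells came from 4 control mice and 4 endFoxf1+/- mice, whose libraries are numbered C1 to C4 and H1 to H4. The endFoxf1+/- mice carried Pdgfb-iCreER and Foxf1 fl/+. In them tamoxifen given by oral gavage switched on the Pdgfb-driven Cre, which deleted exon 1 of 1 allele of Foxf1, a forkhead transcription factor, from endothelial cells. The other Foxf1 allele remained. The labels call the comparison mice control only. For this line the study describes controls as littermates with the floxed Foxf1 allele or the Cre transgene alone, given tamoxifen too, while its account of the tumor model names wild-type C57Bl/6 mice, so the genotype of these 4 controls cannot be settled. Mice were 6 to 8 weeks old at injection of mCherry-labelled LLC cells into the left lung. The comparison asks how the loss of 1 endothelial Foxf1 allele moves with the expression of these genes in tumor vessels.

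Capillary endothelium is the gate through which fatty acids pass from blood to tissue. Lipoprotein lipase, the product of Lpl, splits triglycerides of circulating lipoproteins at the capillary wall, Lipg encodes a lipase made by endothelial cells that acts mainly on phospholipids, and Angptl4 encodes a secreted inhibitor of lipoprotein lipase. The freed fatty acids are taken up with the help of CD36, are carried in the cell by the binding proteins FABP4 and FABP5, and enter mitochondria through CPT1A, while SCARB1 binds high-density lipoproteins. PPARG and PPARA are nuclear receptors that fatty acids activate, and Cd36, Fabp4, Lpl, Angptl4 and Cpt1a are textbook targets of one or both.

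Foxf1 itself was at 213, 285, 296 and 331 TPM (a transcript level corrected for transcript length and scaled to the library total) in the controls C1 to C4, and at 177, 203, 14.04 and 105 TPM in H1 to H4. In TPM, every endFoxf1+/- library lay below every control library. The 20 endothelial markers had a geometric mean level of 84.5 to 107% of its control average in C1 to C4, 103.9% in H1 and 105.5% in H2, but 5.67% in H3 and 53.8% in H4. Pecam1, which encodes the sorted antigen CD31, was at 1061 to 1505 TPM in controls and at 77.5 TPM in H3. H3 also had all 14 macrophage and monocyte markers above every control library, and its median correlation with the other libraries was 0.795, against 0.892 for H4 and 0.958 to 0.968 for the others. H3 therefore went against its label as sorted endothelium, and values without it are given beside those with it. Fewer endothelial cells in a library and less endothelial RNA per cell cannot be told apart in such samples. Each gene was for this reason compared on 2 scales. The first was log2(TPM + 1). The second was the same value minus the mean of the 20 endothelial markers in that library, which gives a level relative to endothelial transcripts. On the second scale Foxf1 was below all controls in H1, H2 and H4, but inside the control range in H3, so the groups overlapped.

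Among the 10 genes, Pparg and Angptl4 had higher TPM in every endFoxf1+/- library than in any control library, Fabp5 had a higher mean, and Lipg was lower in every endFoxf1+/- library. Mean TPM in endFoxf1+/- cells was 4.48 times the control mean for Pparg, 3.73 times for Angptl4, 1.96 times for Fabp5 and 0.390 times for Lipg. Without H3 it was 4.48 times for Pparg, 2.67 for Angptl4, 1.57 for Fabp5 and 0.4975 for Lipg. Cd36, Scarb1, Lpl, Fabp4 and Cpt1a had means of 0.891 to 1.07 times the control mean. With H3, the library lowest in Cd36 and Scarb1, left out, these were 1.38 times for Scarb1, 1.16 for Cd36 and 1.14 for Cpt1a. They were 0.961 for Fabp4 and 0.941 for Lpl. Scarb1 was then above all controls in each library, as were 6.5% of all genes tested. With all libraries, none of these differences passed the limma test after Benjamini-Hochberg adjustment over the 14964 genes tested, and neither did any other gene, while 836 genes had an unadjusted p under 0.05. Of the 9 genes that reached a TPM of 1 in at least 4 libraries, 3 were higher and 1 was lower at an unadjusted p under 0.05, against 2.82% of all genes tested for higher and 2.77% for lower. The groups did not overlap for 2 of the 9 genes with higher values and 1 with lower values, against 2.73% and 2.31% of all genes. The median log2 difference of the 9 genes was -0.08, and that of all genes was -0.17. Ppara was below the minimum TPM and was left out of the limma fit.

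**Figure D1:**
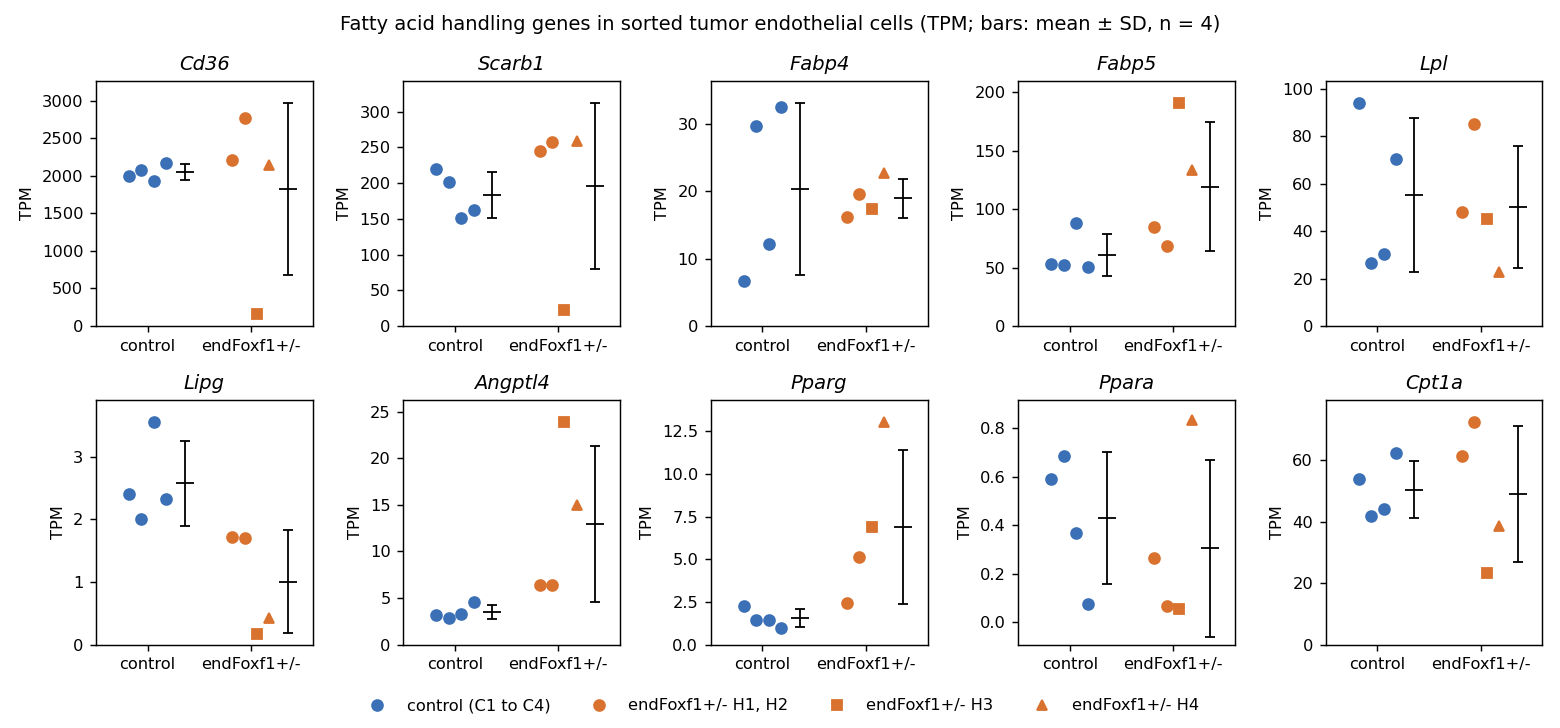
TPM of each of the 10 genes on its own linear axis, with 1 point per library, control libraries in blue and endFoxf1+/- libraries in orange (H3 as a square, H4 as a triangle), and bars for mean ± SD (n = 4). Pparg and Angptl4 in all 4 endFoxf1+/- libraries lie above all 4 controls, Lipg lies below them, and H3 is far below the other libraries for Cd36 and Scarb1.

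Pparg encodes the nuclear receptor that drives lipid storage in adipocytes and is also active in endothelium and macrophages. It lies at chr6:115360951-115490399 on the plus strand (GRCm38, GENCODE vM21). RefSeq places starts of Pparg at 3 positions along the locus, and TPM are given per symbol, so the level does not show which start was used. Because the mice lost an allele of a forkhead factor, the 300 bases around each start (250 before and 50 after) are shown, with matches to the forkhead core TAAACA and to the nuclear receptor half-site AGGTCA, on either strand, in capitals. RefSeq windows were read for 4 of the 10 genes, Cd36, Pparg, Ppara and Cpt1a. Lipg was left out of this step beforehand, so nothing is said of its promoter.
Pparg window chr6:115360894-115361193, plus strand: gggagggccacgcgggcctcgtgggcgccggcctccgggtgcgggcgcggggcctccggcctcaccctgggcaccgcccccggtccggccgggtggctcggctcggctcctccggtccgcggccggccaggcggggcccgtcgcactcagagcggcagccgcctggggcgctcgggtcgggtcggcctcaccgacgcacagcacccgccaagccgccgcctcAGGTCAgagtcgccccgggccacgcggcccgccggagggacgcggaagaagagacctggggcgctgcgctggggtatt
Pparg window chr6:115362099-115362398, plus strand: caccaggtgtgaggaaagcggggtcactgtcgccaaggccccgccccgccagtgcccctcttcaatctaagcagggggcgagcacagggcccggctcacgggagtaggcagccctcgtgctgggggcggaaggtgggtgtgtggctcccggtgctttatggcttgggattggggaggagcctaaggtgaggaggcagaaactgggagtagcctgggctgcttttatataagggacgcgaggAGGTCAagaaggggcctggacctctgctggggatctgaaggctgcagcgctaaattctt
Pparg window chr6:115421816-115422115, plus strand: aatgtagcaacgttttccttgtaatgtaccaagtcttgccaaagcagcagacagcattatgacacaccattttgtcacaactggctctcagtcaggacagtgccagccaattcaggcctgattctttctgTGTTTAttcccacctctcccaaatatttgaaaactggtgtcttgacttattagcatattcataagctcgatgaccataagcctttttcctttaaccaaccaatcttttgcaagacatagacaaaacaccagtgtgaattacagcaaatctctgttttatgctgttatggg
The 2 upstream windows are rich in G and C (80.3% and 62.7%) and each holds 1 AGGTCA, while the third has 40.3% G and C and holds TAAACA once, read on the minus strand 120 bases before the start. Of the 6 windows of the 4 genes, 1 held TAAACA and 4 held AGGTCA, and 13.4% and 16.3% of the 32851 promoter windows of all genes did. The half-site AGGTCA repeated in the same direction with 1 base between, the form bound by PPAR with its partner RXR, was in none of the 6 and in 0.0396% of all windows. These matches describe letters and do not show binding.

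Pparg was at 2.24, 1.45, 1.46 and 0.989 TPM in C1 to C4 and at 2.44, 5.14, 6.88 and 13.1 TPM in H1 to H4. All endFoxf1+/- libraries were higher than all controls, with H1 just above C1 and H4 the highest. The means were 1.54 ± 0.519 and 6.88 ± 4.50 TPM (SD, n = 4 each), and the log2 difference was 1.48 ± 0.42 (SE; limma adjusted p = 0.790). By the two-sided exact permutation test p was 0.0286, the smallest value that 70 assignments of 4 libraries allow. Without H3 the difference was 1.42 (limma adjusted p = 0.590), and without both H3 and H4 it was 0.88 (limma adjusted p = 0.354). Relative to endothelial markers it was 2.70 ± 1.05 (SE; limma adjusted p = 0.461, exact permutation p = 0.0286), again without overlap, and 1.67 without H3. The unadjusted limma p was under 0.05 in each of these fits, but not on the relative scale with H4 left out.

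Ppara, whose product drives fatty acid oxidation in liver and heart, was at 0.592, 0.685, 0.367 and 0.073 TPM in C1 to C4 and at 0.262, 0.0663, 0.0533 and 0.836 TPM in H1 to H4. The groups overlapped, and all values were below 1 TPM. Within a library, Pparg exceeded Ppara by 0.83 ± 0.20 log2 units in controls and by 2.45 ± 0.70 in endFoxf1+/- cells (SD, n = 4 each). The gap was wider in all 4 endFoxf1+/- libraries, at 1.45, 2.53, 2.90 and 2.94, than in the controls, at 0.54 to 1.03. Its difference of 1.63 (1.48 without H3) had an exact permutation p = 0.0286 and p = 0.114 after adjustment over the 4 pairs of genes compared in this way. Its size depends on the pseudocount, since Ppara was below 1 TPM: it was 2.49 with pseudocount 0.1 and 0.83 with pseudocount 5. The other pairs, Cd36 and Scarb1, Lpl and Lipg, and Fabp4 and Fabp5, had adjusted exact permutation p of 0.229, 0.305 and 0.314.

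Angptl4 (chr17:33773750-33781830, minus strand) was at 3.20, 2.85, 3.33 and 4.53 TPM in C1 to C4 and at 6.37, 6.44, 23.9 and 15.04 TPM in H1 to H4. H1 and H2 lay close together just above the controls, and H3 and H4 were well above both. The means were 3.48 ± 0.729 and 12.95 ± 8.38 TPM (SD, n = 4 each), with a log2 difference of 1.46 ± 0.42 (SE; limma adjusted p = 0.790) and an exact permutation p = 0.0286. Without H3 the difference was 1.11 (limma adjusted p = 0.557), and without H3 and H4 it was 0.74 (limma adjusted p = 0.287). On the relative scale it was 2.68 ± 1.101 (SE; limma adjusted p = 0.461, exact permutation p = 0.0286), and 1.36 without H3. On both scales the unadjusted limma p of Angptl4 stayed under 0.05 whichever single library was left out.

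Angptl4 is known to be induced by low oxygen as well as by PPARs, and the 13 hypoxia-responsive genes are therefore given beside it. Their mean log2(TPM + 1) was 5.27, 5.18, 4.92 and 4.90 in C1 to C4 and 5.43, 5.396, 5.49 and 5.48 in H1 to H4, with no overlap. The exact permutation p was 0.0286, and 0.129 after adjustment over 9 marker lists, with a difference of 0.38 (0.37 without H3). Of the 13 genes, 4 were higher at an unadjusted limma p under 0.05, among them Egln3, which encodes an oxygen-sensing hydroxylase, and Hk2, a hexokinase, and 1, the lipid droplet gene Hilpda, was lower, against 2.82% and 2.77% of all genes. Without H3, 5 were higher and 0 lower, against 4.83% and 2.35% of all genes. The part of these genes in the level of Angptl4 was not tested.

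**Figure D2:**
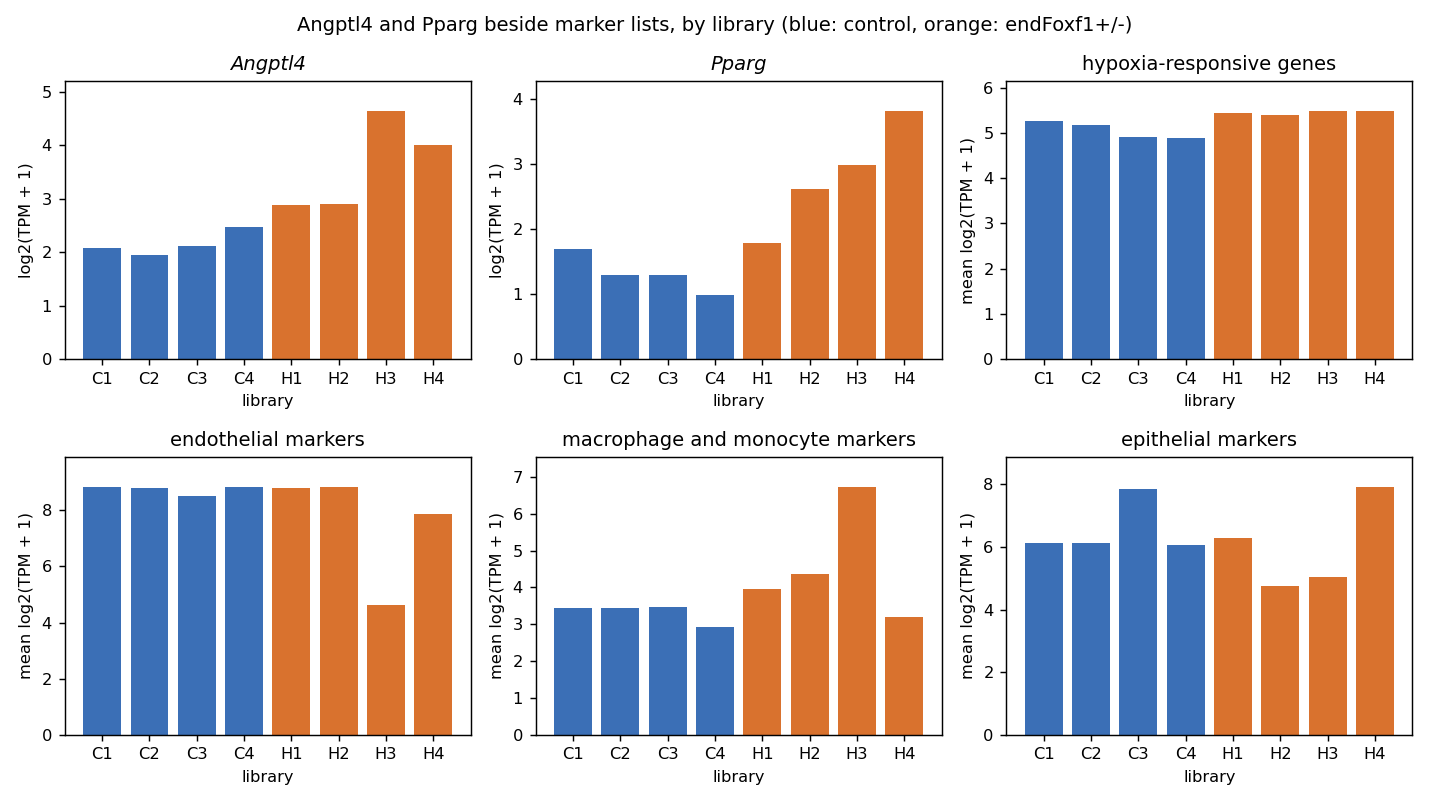
Bars from 0 give log2(TPM + 1) of Angptl4 and Pparg and the mean log2(TPM + 1) of 4 marker lists in each library, control in blue and endFoxf1+/- in orange. Endothelial markers are lowest in H3 (4.61) and next lowest in H4 (7.86), macrophage markers are highest in H3 (6.74), and epithelial markers are highest in H4 (7.93) and C3 (7.86).

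Macrophages and adipocytes also express Pparg, Lpl, Fabp4, Fabp5 and Cd36, so their markers are given here. The mean log2(TPM + 1) of the 14 macrophage and monocyte markers was 2.93 to 3.46 in controls and 3.95, 4.36, 6.74 and 3.20 in H1 to H4, and their summed level was 1497 to 5121 TPM in controls and 1977 to 9415 TPM in endFoxf1+/- libraries. H4, with the highest Pparg, had a macrophage marker level inside the control range. Of the 7 adipocyte markers only Lipe passed the minimum TPM, Lep was at 0 in all 8 libraries, and Adipoq was at 0 in all but C3 (0.302 TPM). Their summed level was 65.0 to 128 TPM in controls and 9.82 to 122 TPM in endFoxf1+/- libraries. Epithelial markers were high in both C3 and H4, with means of 7.86 and 7.93 against 4.77 to 6.29 in the other libraries, and Pparg was at 1.46 TPM in C3 and 13.1 TPM in H4. The mean of the 11 fibroblast and pericyte markers was 2.71 to 3.41 in controls and 3.53, 2.96, 4.15 and 3.87 in H1 to H4, and their sum was 80.9 to 152 TPM in controls and 202.5, 131, 1346 and 319 TPM in H1 to H4. H1, H3 and H4 were thus above all controls in these markers. The part of RNA from any of these cell types in the levels of the 10 genes was not tested in any library. Over the marker lists the exact permutation p was 0.286 for endothelial, 0.0571 for lung capillary, 0.114 for macrophage, 0.229 for lymphocyte, 0.743 for adipocyte, 0.0571 for fibroblast and pericyte, 0.629 for epithelial and 0.0571 for erythroid and platelet markers.

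Lipg, the endothelial lipase gene, was at 2.41, 2.0, 3.56 and 2.33 TPM in C1 to C4 and at 1.72, 1.70, 0.169 and 0.425 TPM in H1 to H4. All endFoxf1+/- libraries were below all controls, and the lowest were H3 and H4, which also had the lowest endothelial marker levels. The means were 2.58 ± 0.681 and 1.003 ± 0.822 TPM (SD, n = 4 each), and the log2 difference was -0.92 ± 0.35 (SE; limma adjusted p = 0.790, exact permutation p = 0.0286). Without H3 it was -0.69 (exact permutation p = 0.0571, the smallest that 35 assignments of 3 against 4 libraries allow), and without H3 and H4 it was -0.38. At these low levels it was -1.67 with pseudocount 0.1 and -0.34 with pseudocount 5. Relative to endothelial markers the difference was 0.30 (exact permutation p = 1.0), with H3 the highest of all libraries. At 0.169 TPM, the level in H3 (-4.384) was near that of a gene at 0 TPM there (-4.61, Fabp2). The sign of the relative difference turned to -0.44 without H3 and to -0.42 with pseudocount 0.1.

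Lpl (chr8:68880491-68907448, plus strand) was at 93.8, 26.6, 30.4 and 70.4 TPM in C1 to C4 and at 48.1, 85.0, 45.0 and 23.0 TPM in H1 to H4. The groups overlapped over nearly their whole range, and the coefficient of variation within the controls was 58.6%. The log2 difference was -0.08 ± 0.49 (SE; limma adjusted p = 0.968, exact permutation p = 0.914), and also -0.08 without H3. Against endothelial markers it was 1.14 (exact permutation p = 0.371), and 0.17 without H3.

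Cd36 (chr5:17781690-17888801, minus strand) was the most abundant of the 10 genes, and ranked between 37 and 52 of all 33641 symbols in the control libraries. It was at 1998, 2081, 1929 and 2178 TPM in C1 to C4 and at 2214, 2770, 158 and 2150.0 TPM in H1 to H4. The controls varied by only 5.27% (coefficient of variation), and H3 stood alone at the bottom, while H4 kept a control level of Cd36 with about 53.8% of the control endothelial marker level. The log2 difference was -0.76 ± 0.82 (SE; limma adjusted p = 0.815, exact permutation p = 0.971), and 0.21 without H3 (exact permutation p = 0.114). As a share of the endothelial marker level, Cd36 was 440 to 530% in controls and 495, 610, 652 and 929% in H1 to H4. H2, H3 and H4 lay above all controls and H1 lay within their range, with a log2 difference of 0.45 on this scale (limma adjusted p = 0.604, exact permutation p = 0.0571) and 0.46 without H3.

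Scarb1 (chr5:125277087-125341094, minus strand) was at 219.7, 202, 151 and 162 TPM in C1 to C4 and at 245, 257, 22.8 and 259 TPM in H1 to H4. H1, H2 and H4 were close together and above all controls, as were 6.5% of all genes tested without H3. H3 was far below every other library. The log2 difference was -0.38 ± 0.71 with H3 (SE; limma adjusted p = 0.883, exact permutation p = 1.0) and 0.48 without it (limma adjusted p = 0.618, exact permutation p = 0.0571). Relative to endothelial markers Scarb1 was 35.4 to 48.6% in controls and 55.0, 56.7, 97.5 and 112% in H1 to H4, so that all endFoxf1+/- libraries were above all controls. On that scale the log2 difference was 0.84 ± 0.64 (SE; limma adjusted p = 0.461, exact permutation p = 0.0286), and 0.73 without H3. Without H3 its unadjusted limma p was under 0.05 on both scales.

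Fabp5 (chr3:10012548-10016607, plus strand) was at 53.1, 52.4, 88.0 and 50.1 TPM in C1 to C4 and at 84.7, 68.7, 190.5 and 133 TPM in H1 to H4. C3 was above H1 and H2, so the groups overlapped, and H3 and H4 were above all controls. The means were 60.9 ± 18.1 and 119 ± 54.8 TPM (SD, n = 4 each), and the log2 difference was 0.89 ± 0.35 (SE; limma adjusted p = 0.790, exact permutation p = 0.0857). Without H3 it was 0.63 (exact permutation p = 0.171), and without H3 and H4 it was 0.36. As a level against endothelial markers it differed by 2.11 log2 units (exact permutation p = 0.114), and by 0.87 without H3. Its unadjusted limma p was under 0.05 on both scales with all libraries and on neither without H3. With array weights, which give libraries that stand apart less weight, the relative difference was 0.32 and that p was over 0.05, as it was without a variance trend.

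Fabp4 (chr3:10204088-10208576, minus strand), on the same chromosome as its paralog Fabp5, was at 6.71, 29.7, 12.2 and 32.5 TPM in C1 to C4 and at 16.1, 19.6, 17.4 and 22.7 TPM in H1 to H4. All endFoxf1+/- values lay inside the control range, which had a coefficient of variation of 62.9%. The log2 difference was 0.14 ± 0.45 (SE; limma adjusted p = 0.935, exact permutation p = 0.8286), and 0.18 without H3. Against endothelial markers it was 1.36 (exact permutation p = 0.314), and 0.42 without H3. In control tumor endothelium the level of Fabp4 was below that of Fabp5 in all 4 libraries.

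Cpt1a (chr19:3322334-3385733, plus strand), which encodes the rate-controlling step of fatty acid entry into mitochondria, was at 53.7, 41.7, 44.1 and 62.3 TPM in C1 to C4 and at 61.3, 72.5, 23.4 and 38.5 TPM in H1 to H4. H3 and H4 were below all controls, H2 was above them, and the log2 difference was -0.15 ± 0.35 (SE; limma adjusted p = 0.905, exact permutation p = 0.743), and 0.15 without H3. As a share of the endothelial marker level, Cpt1a was 9.64 to 13.7% in controls and 13.9, 16.2, 99.9 and 17.1% in H1 to H4. The 4 endFoxf1+/- values were above all controls, H1 only just, with a log2 difference of 1.07 (limma adjusted p = 0.461, exact permutation p = 0.0286) and 0.40 without H3. The groups overlapped after quantile normalization and with the markers other than Kdr, Vwf, Tek and Emcn as the reference (exact permutation p = 0.0571 each).

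**Figure D3:**
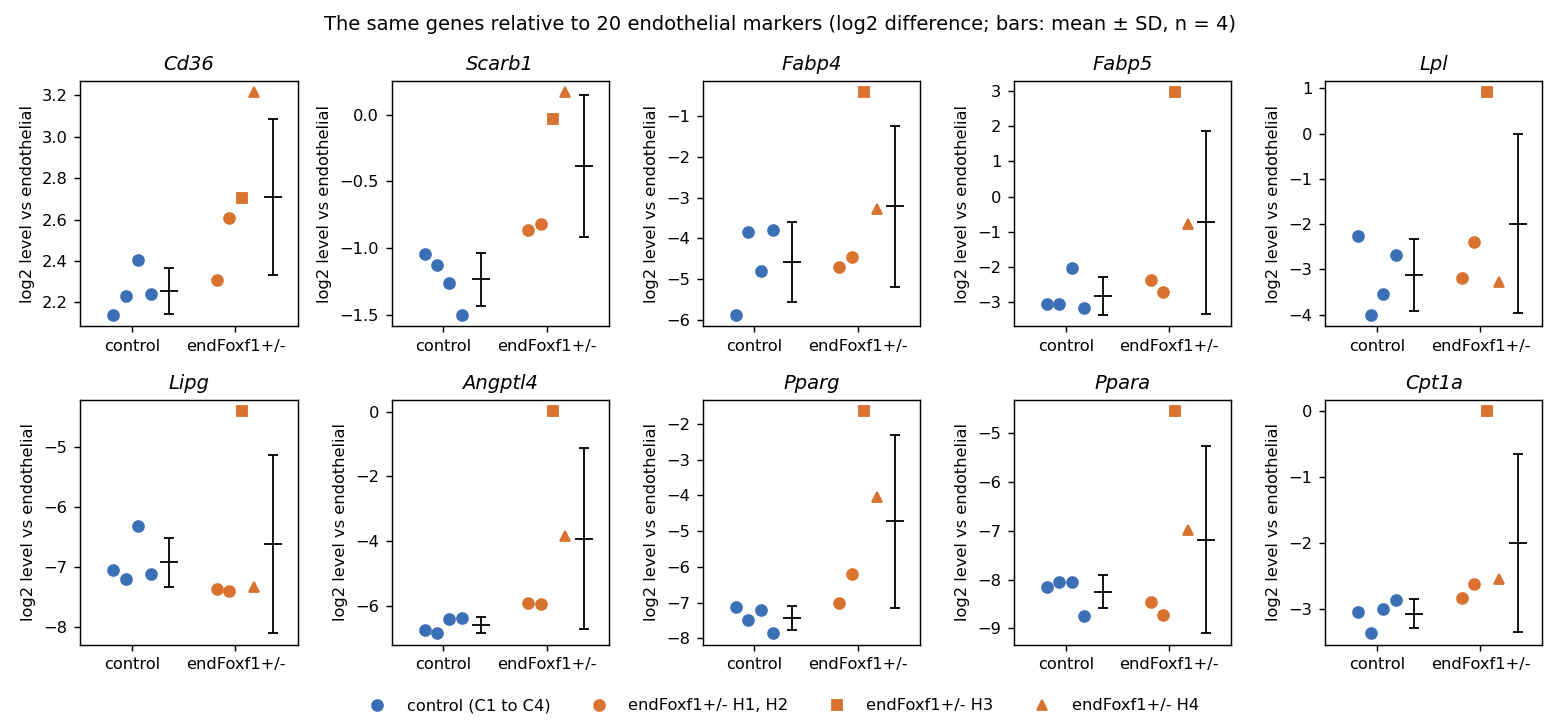
Log2 level of each of the 10 genes relative to the mean of 20 endothelial markers in the same library, on a separate axis per gene, with points and bars as in the plot of TPM (mean ± SD, n = 4). H3 is the highest library for 8 of the 10 genes, and all 4 endFoxf1+/- libraries lie above all controls for Angptl4, Pparg, Cpt1a and Scarb1. Lipg and Ppara, at 0.169 and 0.0533 TPM in H3, lie there near the level of a gene at 0 TPM.

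On the relative scale all 9 tested genes had positive differences, with a median of 1.14 log2 units. Of all 14964 genes tested, 14601 also had positive differences, with a median of 1.05. The mean of the endothelial markers differed by -1.22 between the groups (-0.25 without H3). This scale subtracts that same amount from the difference of every gene, so the 2 scales are not independent tests. At an unadjusted limma p under 0.05, 3 of the 9 genes were higher, Fabp5, Angptl4 and Pparg, against 2.63% of all genes, and 4 of the 9 were without overlap, against 10.8%. Without H3 the median of the 9 genes was 0.46 and that of all genes 0.26, and 3 genes, Angptl4, Pparg and Scarb1, were higher, against 7.01% of all genes. The only gene with an adjusted p under 0.05 on this scale was Esr1 (0.00668% of the genes tested), which is not one of the 10. On the TPM scale without H3, the same 3 genes were higher, against 4.83% of all genes, and the medians were 0.21 and 0.01.

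**Figure D4:**
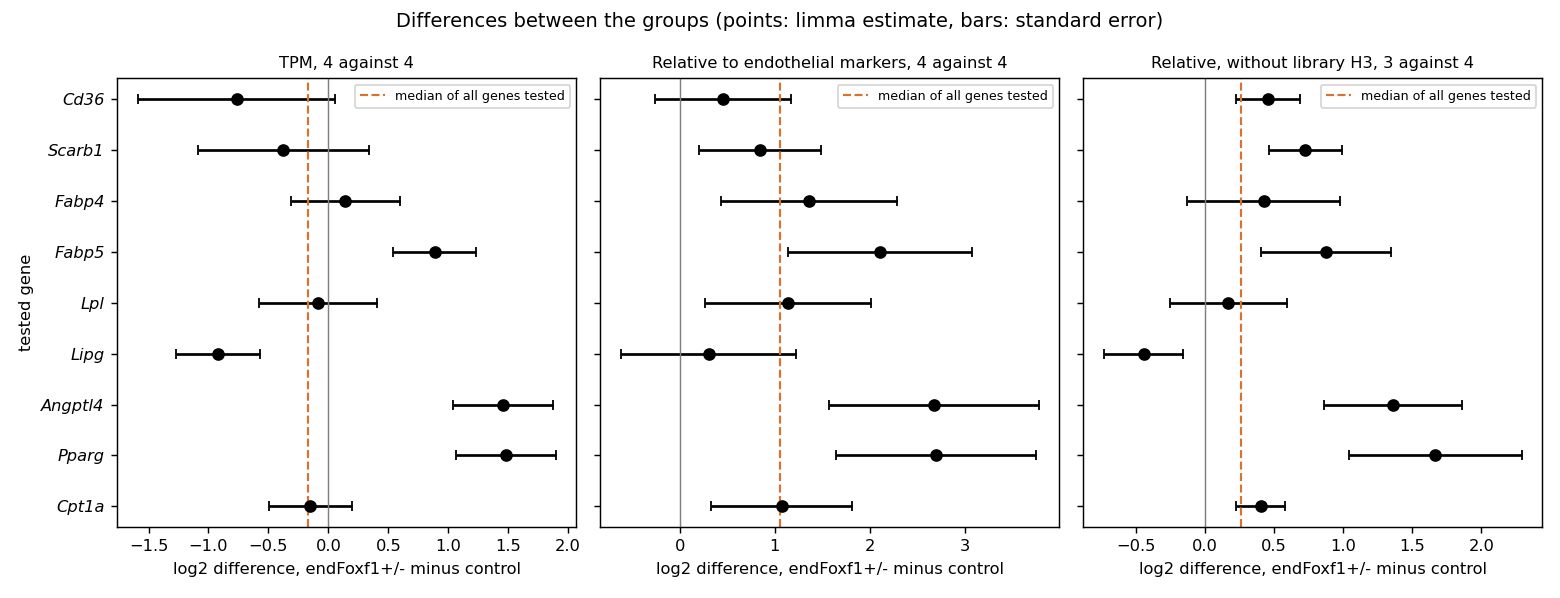
Limma estimates of the log2 difference, endFoxf1+/- minus control, for the 9 tested genes (points) with standard errors (bars), on the TPM scale, relative to endothelial markers, and relative without H3. The dashed line is the median of all genes tested, at -0.17, 1.05 and 0.26, and Angptl4 and Pparg lie farthest to its right in all 3 panels.

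Leaving out single libraries showed which of the 4 unadjusted TPM calls rested on which library. Angptl4 and Pparg kept an unadjusted limma p under 0.05 in all 8 cases. Fabp5 did so only without C3, H1 or H2, and Lipg only without C2, C4, H1 or H2. Of the 4 calls, 2 therefore remained without C1, without H3 and without H4, and Scarb1 was added without H3. At that threshold stood 5.59% of all genes with all libraries and 7.18% without H3. No such share was taken with another library left out.

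In the order of control TPM, Cd36 stood above Scarb1 and Scarb1 above Fabp5, with no overlap between neighbours. Fabp5, Lpl and Cpt1a followed with overlapping ranges, of which that of Lpl also overlapped Fabp4. Angptl4 and Lipg overlapped at 2.85 to 4.53 and 2.0 to 3.56 TPM, Lipg overlapped Pparg, and Ppara was lowest, below all Pparg values. Variation within the controls was 17.6% for Scarb1, 18.7% for Cpt1a and 21.0% for Angptl4, and 63.5% for Ppara, the least expressed.

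By the root mean square difference of centered log2(TPM + 1) over the 8 libraries, the genes whose pattern was nearest to each member were Nfib (0.110) and St5 (0.115) for Cd36, Ablim1 (0.111) and Lgals2 (0.117) for Scarb1, and Bcl9l (0.0926) and Nkapl (0.0944) for Cpt1a. For Angptl4 they were Tnfaip2 (0.166) and Cd109 (0.195), for Fabp5 Aldoc (0.147) and Plp2 (0.152), and for Lipg Dkk3 (0.172) and Zfp454 (0.173). Pparg was nearest to C330027C09Rik (0.236) and Rnd3 (0.354), and Lpl to Rpp40 (0.317) and Zfp382 (0.324). Fabp4 was nearest to Gm12895 and Gm12896 (0.305 each), whose deposited values were equal in every library. The 6 genes nearest to Cd36, Scarb1 and Cpt1a were all at their lowest TPM in H3, as endothelial markers were.

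A further 123 lipid genes in 10 lists were set beside the 10 genes, of which 98 were tested. On the TPM scale, 2 were higher and 4 lower at an unadjusted limma p under 0.05, against 2.82% and 2.77% of all genes, and the median log2 difference was -0.18, against -0.17 for all genes. Both shares of the 98 are near those of all genes, and the genes below are given as values. Without H3, 6 were higher and 2 lower, against 4.83% and 2.35% of all genes, with a median of -0.01. The 2 that were higher with all libraries belong to the partners of lipolysis and uptake. Slc27a1, a fatty acid transport protein, was at 5.96, 5.10, 5.47 and 2.71 TPM in C1 to C4 and at 7.65, 7.81, 40.6 and 12.8 TPM in H1 to H4, all above the controls (log2 difference 1.36, exact permutation p = 0.0286, and 0.85 without H3). Lrp1, a receptor for remnant lipoproteins that macrophages and stromal cells also carry, was at 5.02, 3.46, 4.17 and 3.12 TPM in controls and at 9.11, 8.40, 61.7 and 37.1 TPM in H1 to H4 (log2 difference 2.16, exact permutation p = 0.0286, and 1.65 without H3). Both were highest in H3, as Angptl4 was, and both had a limma adjusted p = 0.790.

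Of 15 further PPAR target genes 8 were tested, of which 3 were lower at an unadjusted limma p under 0.05 and none was higher, against 2.77% and 2.82% of all genes. Their median log2 difference was -0.35, and -0.18 without H3. Plin5, a lipid droplet coat protein, had a mean of 1.85 ± 0.381 TPM in controls and 0.725 ± 0.504 TPM in endFoxf1+/- cells (SD, n = 4; log2 difference -0.76, exact permutation p = 0.0286), and the groups did not overlap. Cyp4a10, a fatty acid hydroxylase, had a log2 difference of -1.02 and Hilpda one of -1.22 (exact permutation p = 0.0857 each). Hilpda was at 398 to 459 TPM in controls and at 319, 439, 73.9 and 109 TPM in H1 to H4, so that the low values were those of H3 and H4. Without H3 the unadjusted limma p was under 0.05 for Plin5 (log2 difference -0.64) but not for Cyp4a10 (-0.75) or Hilpda (-0.79). Relative to endothelial markers none of the 3 was lower at an unadjusted p under 0.05. Plin2, another lipid droplet coat protein in this list, named after its values were seen, had the opposite sign. It was at 99.9, 61.7, 70.1 and 68.0 TPM in C1 to C4 and at 106, 95.4, 222 and 93.7 TPM in H1 to H4, with overlap (log2 difference 0.70, exact permutation p = 0.0857, and 0.41 without H3). Its relative difference without H3 was 0.66, at an unadjusted limma p under 0.05, as were 7.01% of all genes in that direction.

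In a list of nuclear receptors and cofactors related to PPARs, 1 of 8 tested genes was lower at an unadjusted limma p under 0.05, against 2.77% of all genes. This was Nr1h2, which encodes the sterol receptor LXR beta, with a mean of 57.7 ± 5.92 against 40.6 ± 9.18 TPM (SD, n = 4; log2 difference -0.52, exact permutation p = 0.0286, and -0.41 without H3). Of 9 tested regulators of endothelial fatty acid uptake, none had an unadjusted p under 0.05 on the TPM scale, and Rbpj, the DNA-binding partner of Notch, was higher in all endFoxf1+/- libraries (log2 difference 0.65, exact permutation p = 0.0286), as were 2.73% of all genes. It was at 78.3 TPM in H3 and 27.0 to 32.9 TPM in the other endFoxf1+/- libraries, and its difference without H3 was 0.32. Foxo1 (0.85, and 0.62 without H3) and the apelin receptor gene Aplnr (0.87, and 0.82 without H3) did not overlap on the relative scale, where 10.8% of all genes were above all controls. Acsl1, which activates fatty acids to acyl-CoA, was lower in all endFoxf1+/- libraries (log2 difference -0.53, exact permutation p = 0.0286, and -0.28 without H3), as 1 of 6 tested acyl-CoA synthetases, against 2.31% of all genes.

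None of 18 genes of mitochondrial fatty acid oxidation and none of 9 peroxisomal genes had an unadjusted p under 0.05 on the TPM scale, with median log2 differences of -0.06 and -0.26 (-0.05 and -0.01 without H3). Without H3, 3 of the 18 were higher at that threshold, against 4.83% of all genes. These were Cpt1b (log2 difference 1.19), Hadha (0.46) and Acaa2 (0.34), the last 2 named after their values were seen. Cpt1b, the muscle form of Cpt1a, was higher by 1.88 on the relative scale at an unadjusted limma p under 0.05, and by 1.44 without H3. With it, Acadm (1.39), Eci2 (1.11) and Etfdh (1.27), 4 of the 18 mitochondrial genes, and Crot (1.11), 1 of the 9 peroxisomal genes, were above all controls in every endFoxf1+/- library, against 10.8% of all genes. Without H3 the differences were 0.59 for Acadm, 0.38 for Eci2, 0.56 for Etfdh and 0.46 for Crot. Cpt1b was at 1.54 to 3.82 TPM in controls and at 5.64, 4.01, 0.656 and 9.98 TPM in H1 to H4. In the cholesterol list, Abca1 did not overlap on the relative scale (1.70, and 0.82 without H3), as 10.8% of all genes lay above all controls there. Apoe had a relative difference of 2.48 at an unadjusted limma p under 0.05, as did 2.63% of all genes in that direction, with 1431 TPM in H3 against 97.9 to 178 TPM in controls, and 0.80 without H3.

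No gene of lipid droplets or of fatty acid synthesis passed an unadjusted p of 0.05 on either scale. The most abundant were Lipe, a triglyceride and diglyceride lipase (79.1 ± 30.5 against 80.3 ± 51.9 TPM), and Mgll, the monoglyceride lipase (87.8 ± 6.67 against 69.7 ± 46.2 TPM), in the first list. In the second they were Scd1, the stearoyl-CoA desaturase, and Elovl1, an elongase (266 ± 65.9 against 205 ± 86.4 TPM; SD, n = 4 each). Scd1 was at 159, 132, 601 and 130.2 TPM in C1 to C4 and at 236, 31.5, 42.1 and 1217 TPM in H1 to H4. With H3 left out, the endFoxf1+/- means were 104 ± 24.5 TPM for Lipe, 90.1 ± 26.7 TPM for Mgll and 247 ± 24.7 TPM for Elovl1 (SD, n = 3). The highest values of Scd1 were in C3 and H4, the libraries with the highest epithelial markers, and their part in the level of Scd1 was not tested.

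**Figure D5:**
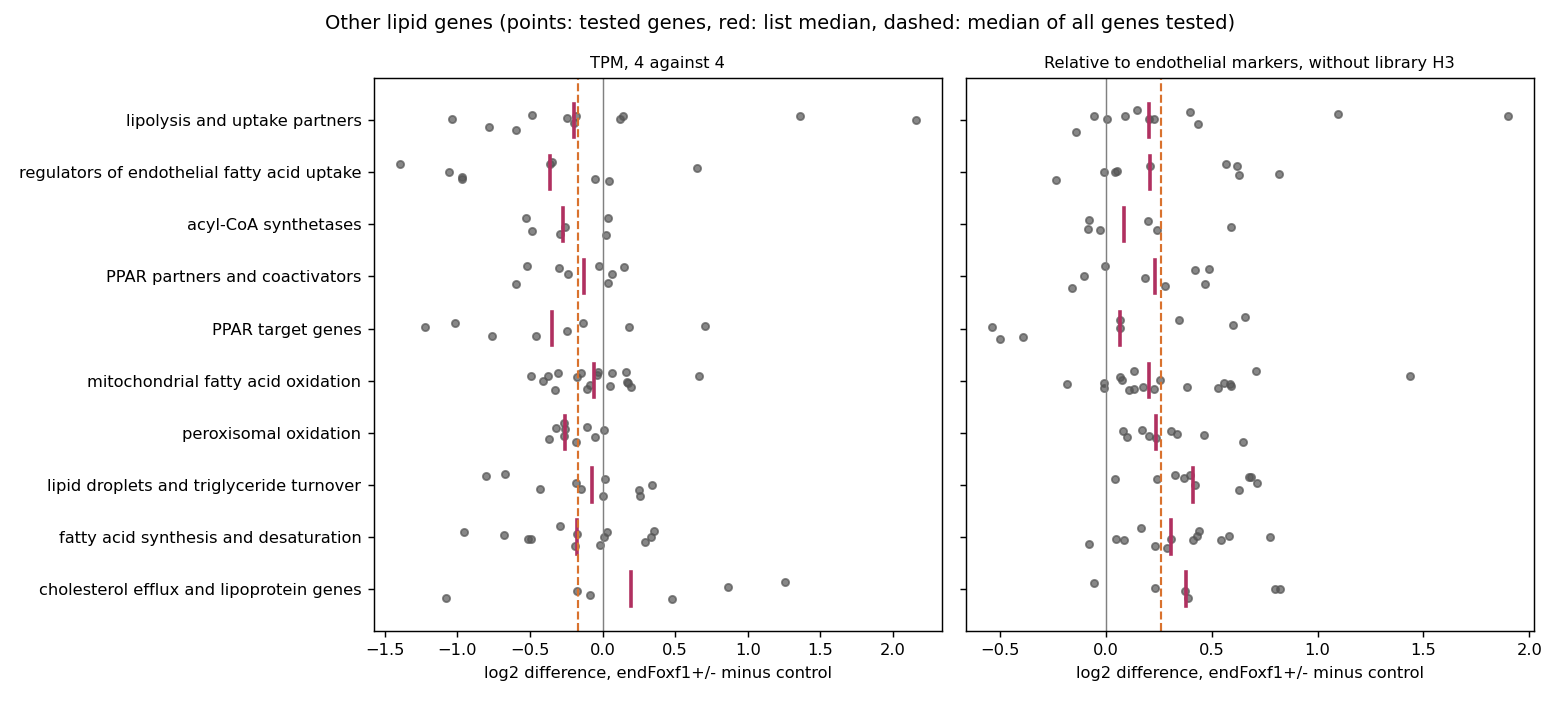
Log2 differences, endFoxf1+/- minus control, of the 98 tested genes of 10 further lipid lists (1 point per gene), on the TPM scale and relative to endothelial markers without H3. Short red lines are list medians and the dashed line is the median of all genes tested (-0.17 and 0.26). The 2 points farthest right in the top row are Slc27a1 and Lrp1.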

How the data were processed

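RNA-seq of 8 libraries was used, 4 control and 4 endFoxf1+/-, grouped by the genotype in the labels, 1 mouse each per the series design. For each library the authors deposited TPM per gene symbol, corrected for transcript length and scaled to 1000000. The submitters' processing notes name TopHat, Cufflinks, Subread and DESeq2 with GRCm38. DESeq2 served to find differentially expressed genes, and the roles of the other tools, the versions and the annotation are not given in the sources used here. TPM keep no depth, so precision rests on the spread between libraries. No batch differed between libraries per the labels, and no 2 libraries of 28 pairs were identical.

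TPM were tested in R 4.3.3 with limma 3.58.1 (eBayes with trend) on log2(TPM + 1), which understates differences of low genes, in those genes that reached 1 TPM in 4 or more libraries, at a Benjamini-Hochberg adjusted threshold of 0.05. A second fit subtracted the mean of 20 endothelial markers. Single values were compared by exact two-sided permutation tests. DESeq2, which the authors ran, was left out because TPM are not counts. Coordinates are from GENCODE vM21 on GRCm38, and promoter windows from RefSeq on GRCm38.p6.

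The 10 genes and all lists were chosen with earlier results of these data known. Named are the 10 genes, other lipid genes without overlap between groups or with an unadjusted p under 0.05 on either scale, otherwise the 2 most abundant of a list, and the 2 genes most alike to each tested member. Alternatives were other pseudocounts, filters, scalings, weights and markers, and leaving out libraries.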

Additional observations from a re-analysis of the deposited data

Results flagged for a closer look

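In 40 groups of 4 libraries (10 genes, 2 scales, 2 genotypes), 1 library stood far from the other 3 in 7 cases by Dixon's 95% criterion, and chance marks about 1 in 20 such groups. Library C3 had 88.04 TPM of Fabp5 against 50.14 to 53.11 in the other controls, and relative to endothelial markers its Fabp5 was at -2.031 log2 units against -3.172 to -3.054. C3 was also highest for Lipg relative to endothelial markers, at -6.319 against -7.208 to -7.058. Library H3 had 22.81 TPM of Scarb1 against 244.9 to 259.1 in the other endFoxf1+/- libraries. Relative to endothelial markers, which were at 5.67% of the control mean in H3, that library was above the others for Lipg (-4.384 against -7.396 to -7.344) and for Cpt1a (-0.001556 against -2.845 to -2.550). Lipg was at only 0.169 TPM in H3, so its value there is near the floor of the scale. Fabp2, at 0 TPM in every library, was at -4.61 in H3 and at -8.848 to -7.855 in the others. Ppara in C4 was at -8.747 relative to endothelial markers against -8.156 to -8.040 in the other controls.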

How the results depend on the processing

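On the TPM scale the differences of Angptl4, Pparg, Fabp5 and Lipg kept their direction in every alternative run, but not their size. With pseudocount 0.1, pseudocount 5 and array weights, in that order, they were -1.67, -0.34 and -0.38 for Lipg, 1.91, 0.79 and 0.83 for Pparg, 1.66, 0.97 and 0.80 for Angptl4 and 0.90, 0.85 and 0.49 for Fabp5, and Pparg minus Ppara was 2.49 with pseudocount 0.1 and 0.83 with pseudocount 5. The median log2 difference of all genes on the TPM scale was -0.17 as deposited, -0.05 after quantile normalization and -0.01 after median ratio scaling. After rescaling without the most abundant gene and mitochondrial genes it was -0.14. The median of the members on the TPM scale was 0.081 after quantile normalization, 0.11 after median ratio scaling, 0.36 with array weights, 0.40 without H3 and H4, and -0.38 to 0.21 with 1 library left out. On the relative scale it was 0.45 with array weights, 0.33 without H3 and H4, and 0.46 to 1.54 with 1 library left out. Of the members, 2 had an unadjusted p under 0.05 on the TPM scale at a minimum TPM of 5, which leaves fewer genes tested, and 2 to 4 with 1 library left out. On the relative scale they were 1 at that minimum, 5 with array weights and 1 to 3 with 1 library left out. Of these settings, the share of all genes at that threshold was taken only without H3, at 7.18% (TPM) and 8.16% (relative). The other counts have no share of all genes to be read against. Over all genes, limma called 148 with array weights, 3 without H3 and H4, and 0 to 1 with 1 library left out (Rpl3-ps1 without C1, Esr1 without H3) on the TPM scale. On the relative scale it called 9 with pseudocount 5, 17 without a filter, 27 with array weights, 2 without H3 and H4, and 1 to 2 with 1 library left out.

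Relative to endothelial markers, Pparg overlapped between groups with pseudocount 5 (1.94, exact permutation p = 0.0571), and Cd36 did not overlap after quantile normalization (0.40, exact permutation p = 0.0286). Signs turned as follows (log2 differences). With array weights, TPM values were 0.15 for Cd36, -0.25 for Fabp4, 0.36 for Lpl, 0.35 for Cpt1a and 0.42 for Scarb1. Without H3 and H4 they were 0.28 for Cd36, 0.40 for Lpl, 0.41 for Cpt1a and 0.46 for Scarb1. Quantile normalization gave 0.081 for Lpl and 0.013 for Cpt1a, and median ratio scaling 0.11 and 0.042. With 1 library left out, TPM values ran from -1.17 to 0.21 for Cd36, -0.27 to 0.44 for Fabp4, -0.38 to 0.235 for Lpl, -0.38 to 0.15 for Cpt1a and -0.67 to 0.48 for Scarb1. Relative values were -0.42 with pseudocount 0.1, -0.38 with array weights, -0.45 without H3 and H4 and -0.44 to 0.56 with 1 library left out for Lipg, and without H3 and H4 -0.010 for Fabp4 and -0.35 for Ppara. The difference in Pparg minus Ppara was 1.16 without H3 and H4 (exact permutation p = 0.133, the smallest possible) and 1.47 to 1.96 with 1 library left out (p = 0.0571, the smallest possible). Beyond the libraries or genes an alternative leaves out, the cause was not tested. No paired analysis was possible because the labels give no replicate numbers and no pairing, and the library numbers used here follow accession order and are names only.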
